A study of Mus musculus with 12 samples.

Results

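The genes that build cholesterol and fatty acids, and the SREBP machinery that controls them, were followed in W-20 cells, a murine bone marrow stromal cell line, in the presence or absence of PTH. The set of 30 genes was taken by symbol from a count matrix of 56980 genes, and all 30 were found and passed the filter that left 17691 genes for testing. It holds 5 genes of the SREBP machinery, 7 of the mevalonate arm, 11 of the squalene and sterol arm, the sterol carrier *Stard4*, and 6 of fatty acid synthesis. Bulk RNA-Seq was available from 12 libraries, 3 in each of 4 groups. WT W-20 cells and Y428F cells were each exposed to 50 nM PTH or to PBS vehicle for 2 hours.

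Y428F cells are W-20 cells that stably express a plasmid-borne YAP, the transcriptional coactivator of the Hippo pathway, in which a tyrosine was replaced by phenylalanine. The transgene is Flag-tagged, its plasmid carries a CMV promoter, and positive clones were selected with puromycin. In places the study names the sequenced line as carrying, in addition, a serine replaced by alanine in YAP. In other places it names the tyrosine change alone, as the library titles do, so which of these lines was sequenced is not clear. The genotype field of these libraries reads WT, so they were grouped by title. No line expressing unmutated YAP from a plasmid is among the 4 groups, so an effect of the mutated residue and other differences of the line cannot be told apart. Whether the 3 libraries of a group came from separate cultures is not stated for the sequencing itself, and p-values measure only the spread between these libraries. In bulk RNA, fewer cells expressing a gene and less RNA per cell cannot be told apart.

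SREBPs are transcription factors held in the endoplasmic reticulum membrane by SCAP and the INSIG proteins when sterols are plentiful. When sterols fall, SCAP escorts SREBP to the Golgi, where proteases release the part that enters the nucleus. SREBP2, from *Srebf2*, mainly drives sterol synthesis, whereas SREBP1, from *Srebf1*, mainly drives fatty acid synthesis, and *Insig1* is itself a target that closes the loop. Stromal cells can become osteoblasts or adipocytes, and PTH acts on them through a G protein-coupled receptor that raises cAMP.

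The labelled cell type was checked first. Of 10 stromal markers, 9 were tested, led by *Col1a2*, a type I collagen chain, and *Thy1* was the marker at or near 0. The summed level of the list was 22261 ± 1905 CPM (SD, n = 3; CPM are counts scaled to the TMM-adjusted library size) in vehicle-treated WT cells and 14257 ± 586 CPM in vehicle-treated Y428F cells, and 9 of 9 tested markers were lower in Y428F cells (adjusted p under 0.05, as for 22.7% of all genes and 34.2% of genes averaging 25 CPM or more). With PTH, the sums were 21888 ± 1551 CPM in the WT line and 11933 ± 1421 CPM in Y428F cells, with 8 of 9 lower (23% of all genes and 34.6% of genes averaging 25 CPM or more). Of 8 adipocyte markers, *Adipoq*, *Plin1*, *Cidec*, *Lep* and *Cfd* stayed below 10 counts in every library. The adipocyte sum was 105 ± 3.18 CPM in the WT line and 56.5 ± 1.65 CPM in the Y428F line with vehicle, and 112 ± 4.56 and 82.7 ± 1.80 CPM with PTH. Its genes did not move together: with vehicle the adipogenic factor *Cebpa* went from 46.1 to 9.76 CPM and the fatty acid carrier *Fabp4* from 26.9 to 6.57 CPM between the WT and the Y428F line, whereas the nuclear receptor *Pparg* went from 31.7 to 39.9 CPM. Blood cell markers, led by *Ptprc*, summed to 1.35 ± 0.167 CPM in the WT line and 3.40 ± 0.329 CPM in the Y428F line with vehicle, with *Adgre1*, *Cd3e* and *Itgam* below 10 counts in every library. Endothelial markers, led by *Cdh5*, summed to 1.42 ± 0.453 and 8.91 ± 1.00 CPM, with *Pecam1* and *Kdr* below 10 counts. With PTH, blood cell markers summed to 1.06 ± 0.745 CPM in the WT line and 4.09 ± 0.187 CPM in the Y428F line, and endothelial markers to 1.05 ± 0.111 and 6.44 ± 0.328 CPM. The part of these marker shifts in the results on lipid synthesis was not tested.

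Depth was even, with 17127897 to 19057319 counts per library, and no member had fewer than 423 counts in any library. Within groups, the CV of the members had a median of 4.65% and reached 22.1%. WT vehicle library 1 stood apart for these genes, and it is described before the comparisons because several of them rest on it. It was the highest of the 3 WT vehicle libraries for 18 of 18 sterol synthesis enzymes (the mevalonate, squalene and sterol arms), at a median of 1.25 times the mean of the other 2. Among 7005 tested genes averaging 25 CPM or more, it was the highest for 34.7%. It was the highest for 3 of 6 fatty acid genes and for 1 of 5 SREBP machinery genes, *Insig1*. Its total of 18799284 counts and its TMM factor of 1.01 were within the range of the other libraries. It also stood apart for some cell type markers. The stromal markers summed to 20275.2 CPM in it, against 22435.2 and 24072.5 CPM in libraries 2 and 3. *Pdgfra* had 77.7 CPM in it against 105.4 and 102.4 CPM, and *Col3a1* 662.8 against 924.5 and 920.9 CPM. *Fabp4* was at 33.6 against 23.4 and 23.7 CPM, whereas *Twist1*, at 78.8 CPM, lay between 90.7 and 77.9 CPM. The cause was not tested, and the results that rest on this library are given with and without it. The library was singled out by its values for these same enzymes, so leaving it out must lower their WT vehicle mean, and counts without it are a description from which nothing is read against other genes.

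Summed over the 18 sterol enzymes, WT vehicle library 1 reached 3889 CPM, against 3054 and 3133 CPM in the other 2 libraries of its group. In WT cells with PTH the sum was 3691, 3630 and 3604 CPM. In Y428F cells it was 4162, 4131 and 4304 CPM with vehicle and 4566, 4519 and 4440 CPM with PTH. Thus every Y428F library lay above every WT library, and within Y428F cells every PTH library lay above every vehicle library. In WT cells the PTH libraries fell between vehicle library 1 and the other vehicle libraries. The 6 fatty acid genes were ordered differently, with 4023 ± 162 CPM in WT vehicle, 3831 ± 236 CPM in WT PTH, 5100 ± 104 CPM in Y428F vehicle and 4674 ± 342 CPM in Y428F PTH (SD, n = 3 each).

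**Figure D1:**
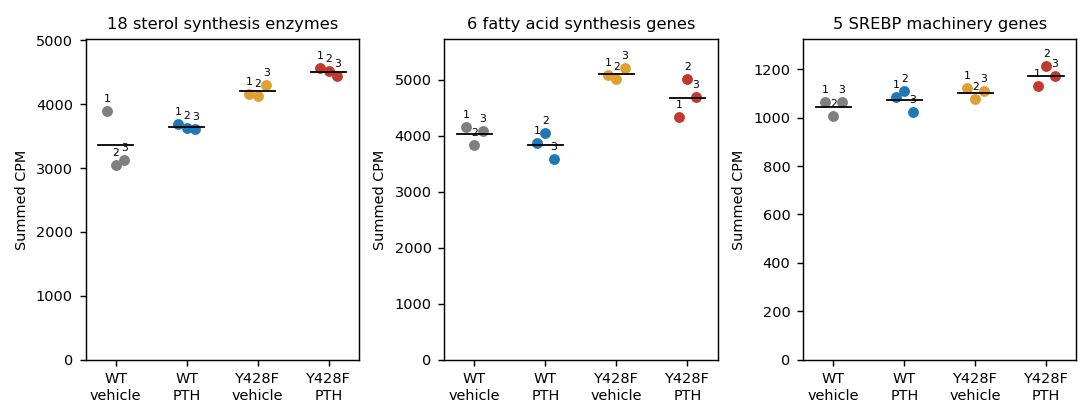
Summed CPM of the sterol enzymes, the fatty acid genes and the SREBP machinery genes (vertical axes) in each library of the 4 groups (horizontal axis; points are libraries numbered by replicate, lines are group means). WT vehicle library 1, at 3889 CPM of sterol enzymes, lies above the other 2 libraries of its group, at 3054 and 3133 CPM.

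Levels between genes were compared per kb of the canonical transcript. In WT cells with vehicle, the median over the members was 36.4 CPM per kb. The stearoyl-CoA desaturase *Scd2* had the highest level at 444 ± 26.4 CPM per kb, followed by the farnesyl diphosphate synthase *Fdps* at 407 ± 57.0 CPM per kb. These neighbours did not differ beyond their spread. *Msmo1*, *Cyp51* and *Sqle*, enzymes of the squalene and sterol arm, came next at 132 ± 24.7, 131 ± 20.7 and 114 ± 10.2 CPM per kb, again within their spread. *Hsd17b7*, the 3-ketosteroid reductase of the sterol arm, had the lowest level at 8.14 ± 1.12 CPM per kb, below the acetyl-CoA carboxylase *Acaca* at 10.8 ± 0.644 CPM per kb. The levels thus spanned 54.5-fold. The order depended on the length used. Per kb of exon union, *Scd2* stayed first at 322 CPM per kb, *Cyp51* followed at 110 and *Fdps* at 109 CPM per kb, *Msmo1* and *Sqle* ranked 11 and 12 at 38.8 and 36.1 CPM per kb, and the lowest was *Acaca* at 5.61 CPM per kb, with *Hsd17b7* ranked 25 at 7.34 CPM per kb. *Scd1* and *Scd2*, and *Acat2* with its relative *Acat3*, are close in sequence, and how reads shared between them were divided is uncertain.

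Promoter sequences were examined because SREBP2 and SREBP1 are known regulators of most of these genes. A 300-base window, from 250 bases before to 50 bases after the start, was present for 24 of the 30 genes in the RefSeq table of GRCm38.p6, and *Fdps*, *Fdft1*, *Sqle*, *Stard4*, *Scd1* and *Scd2* had no entry. Motifs were searched on both strands, and none contains another. The sterol regulatory element, searched as TCACNCCAC, was present in 1 of 24 windows, that of *Hmgcs1*, and in 1.43% of 11489 tested genes with a window. The CCAAT box, the NF-Y element that often neighbours SREBP sites, was present as CCAAT in 20 of 24 windows (83.3%) and in 43.3% of tested genes. The GC box GGGCGG was present in 20 of 24 windows (83.3%) and in 64.6% of tested genes, and the E-box CACGTG in 5 of 24 (20.8%) and in 11.1%. The cAMP response element TGACGTCA and the TEAD motif CATTCC were in 0 of 24 windows, and in 3.29% and 14.9% of tested genes. A match describes the sequence, not binding.

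The windows of *Hmgcs1*, *Hsd17b7* and *Insig1* are printed because these genes carry the PTH results, the last 2 having been added after the motif counts were seen. Each is given 5′ to 3′ on the strand of the gene, with the sterol regulatory element and every CCAAT box, on either strand, in capitals. All 3 were placed on GRCm39 by an exact match, *Hmgcs1* at chr13:120151637-120151936 (plus strand), *Hsd17b7* at chr1:169796725-169797024 (minus strand) and *Insig1* at chr5:28276160-28276459 (plus strand). The *Hmgcs1* window held 1 sterol regulatory element and 4 CCAAT boxes, that of *Hsd17b7* 3 CCAAT boxes and that of *Insig1* 1 CCAAT box.
Hmgcs1: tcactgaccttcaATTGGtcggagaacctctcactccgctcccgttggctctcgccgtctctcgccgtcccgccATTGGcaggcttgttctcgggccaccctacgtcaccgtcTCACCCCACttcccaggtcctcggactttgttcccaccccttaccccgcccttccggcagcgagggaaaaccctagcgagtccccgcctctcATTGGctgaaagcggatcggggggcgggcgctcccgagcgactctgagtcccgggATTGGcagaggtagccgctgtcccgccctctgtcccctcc
Hsd17b7: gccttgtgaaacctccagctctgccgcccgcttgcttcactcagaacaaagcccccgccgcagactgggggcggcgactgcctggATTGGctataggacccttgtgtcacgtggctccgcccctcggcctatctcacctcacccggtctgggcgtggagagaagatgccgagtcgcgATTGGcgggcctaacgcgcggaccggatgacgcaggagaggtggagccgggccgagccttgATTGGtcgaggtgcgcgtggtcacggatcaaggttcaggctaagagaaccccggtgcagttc
Insig1: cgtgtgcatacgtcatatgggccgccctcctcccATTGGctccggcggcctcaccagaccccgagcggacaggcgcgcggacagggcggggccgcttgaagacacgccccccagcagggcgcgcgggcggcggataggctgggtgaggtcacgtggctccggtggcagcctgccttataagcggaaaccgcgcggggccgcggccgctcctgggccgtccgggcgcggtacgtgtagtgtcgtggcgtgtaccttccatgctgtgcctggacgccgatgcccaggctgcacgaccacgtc

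The comparison between the cell lines asked which genes differed between Y428F and WT cells without hormone. The lipid synthesis genes were broadly higher in Y428F cells. With vehicle, 23 of 30 members were higher and 0 lower (adjusted p under 0.05 by the quasi-likelihood test of edgeR, adjusted after Benjamini and Hochberg over all 17691 genes, as for every adjusted p given), against 22.4% of all genes higher and 22.7% lower, and 30.7% higher among genes averaging 25 CPM or more. The members called were 7 of 7 in the mevalonate arm, 8 of 11 in the squalene and sterol arm, *Stard4*, 6 of 6 in the fatty acid arm and 1 of 5 in the SREBP machinery. For 23 of 30, every Y428F library lay above every WT library, as it did for 27.5% of all genes. The median log2 fold change of the 30 was 0.36, against 0.01 over all genes. Without WT vehicle library 1, 26 of 30 members were higher, including 18 of 18 sterol enzymes (22.1% of all genes and 30.2% of genes averaging 25 CPM or more), a shift in the direction that leaving it out fixes.

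**Figure D2:**
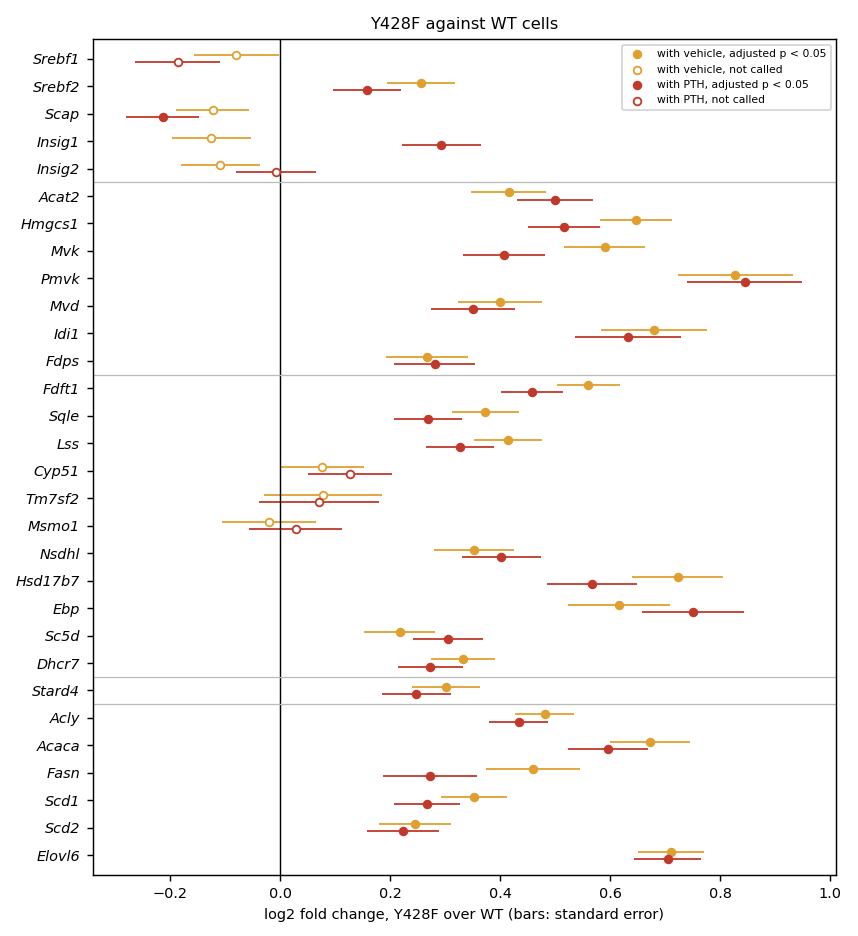
Log2 fold change of Y428F over WT cells for each member (horizontal axis; bars, standard errors), with vehicle and with PTH, in the order SREBP machinery, mevalonate arm, squalene and sterol arm, sterol transfer and fatty acid arm. Filled points, adjusted p under 0.05, make up 7 of 7 genes of the mevalonate arm and 6 of 6 of the fatty acid arm in both comparisons.

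Among the genes of the SREBP machinery, with vehicle *Srebf2* (ENSMUSG00000022463.9; GRCm39 chromosome 15, 82031382 to 82093201) was the one called. Its level was 500.8, 493.4 and 544.2 CPM in WT and 619.2, 603.1 and 614.4 CPM in Y428F cells with vehicle, and the groups did not overlap (log2 fold change 0.26 ± 0.06 SE, adjusted p = 0.00187). With PTH it was 560.8, 586.6 and 508.4 CPM in WT and 579.0, 648.0 and 619.1 CPM in Y428F cells, where the groups overlapped (0.16 ± 0.06, adjusted p = 0.0444 by edgeR). That call held in 10 of 19 alternatives (adjusted p from 0.00234 to 0.207). Relative to the median of its chromosome, *Srebf2* was at 0.05 with vehicle and at -0.08 with PTH. *Srebf1* (ENSMUSG00000020538.16; chromosome 11, 60089913 to 60113407) had 88.0, 106.2 and 108.0 CPM in WT and 100.1, 87.2 and 98.7 CPM in Y428F cells with vehicle. Those groups overlapped (-0.08 ± 0.08, adjusted p = 0.432). With PTH *Srebf1* had 109.4, 108.4 and 100.6 CPM in WT and 85.9, 97.2 and 96.6 CPM in Y428F cells, without overlap but short of the threshold (-0.19 ± 0.08, adjusted p = 0.0544 by edgeR). It was called lower in 10 of 19 alternatives (adjusted p from 0.0134 to 0.196), among them the fit without WT vehicle library 1 (adjusted p = 0.0134), so its side of the threshold was not firm.

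*Scap*, which encodes the escort protein (ENSMUSG00000032485.15; chromosome 9, 110158229 to 110214024), had 83.2, 92.2 and 86.7 CPM in WT and 82.0, 76.9 and 81.9 CPM in Y428F cells with vehicle (-0.12 ± 0.07, adjusted p = 0.142). With PTH it had 94.9, 100.1 and 85.8 CPM in WT and 75.1, 82.5 and 84.6 CPM in Y428F cells, and it was the 1 member lower in Y428F cells (-0.21 ± 0.07, adjusted p = 0.0117). Chromosome 9, which holds *Scap*, had a median log2 fold change over its tested genes of -0.26 with PTH and -0.24 with vehicle. Relative to that median, *Scap* was at 0.04 with PTH and at 0.11 with vehicle, so its sign turned. *Insig2*, another retention protein (ENSMUSG00000003721.15; chromosome 1, 121181760 to 121260400), ranged from 35.1 to 41.6 CPM over the vehicle libraries and from 36.0 to 40.8 CPM over the PTH libraries. It was called in neither line comparison (adjusted p = 0.237 with vehicle and 0.944 with PTH).

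In the mevalonate arm, which turns acetyl-CoA into isoprenoid units, *Pmvk*, the phosphomevalonate kinase (ENSMUSG00000027952.17; chromosome 3, 89361758 to 89376323), had the largest difference of the members. It had 39.4, 26.6 and 28.7 CPM in WT and 52.0, 56.8 and 59.4 CPM in Y428F cells with vehicle. Every Y428F library lay above every WT library (0.83 ± 0.10, 1.77-fold, adjusted p = 1.23e-06). With PTH, *Pmvk* had 33.1, 29.3 and 32.1 CPM in WT and 59.7, 55.6 and 54.6 CPM in Y428F cells, again apart (0.84 ± 0.10). The isopentenyl diphosphate isomerase *Idi1* (ENSMUSG00000058258.16; chromosome 13, 8935537 to 8942487) had 205.2, 147.6 and 138.6 CPM in WT and 252.6, 266.4 and 268.1 CPM in Y428F cells with vehicle. The WT library 1 value stood apart from its group but below every Y428F library (0.68 ± 0.10, 1.60-fold, adjusted p = 6.38e-06). *Hmgcs1*, the HMG-CoA synthase (ENSMUSG00000093930.3; chromosome 13, 120151915 to 120170470), had 195.2, 164.4 and 164.2 CPM in WT and 267.0, 269.3 and 283.8 CPM in Y428F cells with vehicle. Its groups were likewise separate (0.65 ± 0.07, 1.57-fold, adjusted p = 6.18e-08). The other 4 members of the arm were *Mvk* (0.59 ± 0.07), *Acat2* (0.41 ± 0.07), *Mvd* (0.40 ± 0.08) and *Fdps* (0.27 ± 0.07), all higher in Y428F cells with vehicle.

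In the squalene and sterol arm, *Hsd17b7* (ENSMUSG00000026675.13; chromosome 1, 169777093 to 169796813) had 43.5, 35.1 and 34.1 CPM in WT and 63.3, 60.3 and 62.7 CPM in Y428F cells with vehicle. The groups were far apart (0.72 ± 0.08, 1.65-fold, adjusted p = 3.67e-07). *Ebp*, the sterol isomerase (0.62 ± 0.09), *Fdft1*, the squalene synthase (0.56 ± 0.06), *Lss*, the lanosterol synthase (0.41 ± 0.06), *Sqle*, the squalene epoxidase (0.37 ± 0.06), *Nsdhl*, a sterol dehydrogenase (0.35 ± 0.07), *Dhcr7* (0.33 ± 0.06) and *Sc5d* (0.22 ± 0.06) were also higher. *Dhcr7* and *Sc5d* encode enzymes of the last steps to cholesterol. The members of the arm that were not called were *Cyp51* (0.08 ± 0.08), the lanosterol demethylase, *Tm7sf2* (0.08 ± 0.11), the sterol C14 reductase, and *Msmo1* (-0.02 ± 0.08), the C4 methyl oxidase.

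*Cyp51*, *Tm7sf2* and *Msmo1* depended on WT vehicle library 1. *Cyp51* (ENSMUSG00000001467.6; chromosome 5, 4123416 to 4154751) had 772.1, 587.9 and 599.8 CPM in WT and 690.7, 665.5 and 709.3 CPM in Y428F cells with vehicle. *Msmo1* (ENSMUSG00000031604.11; chromosome 8, 65170603 to 65186830) had 420.4, 307.1 and 309.7 CPM in WT and 332.4, 341.2 and 348.9 CPM in Y428F cells. In both, WT library 1 lay above every Y428F library and the other 2 WT libraries below. Without library 1, *Cyp51* differed by 0.21 ± 0.05 (adjusted p = 0.00234), *Tm7sf2* by 0.25 ± 0.09 (adjusted p = 0.0407) and *Msmo1*, whose sign turned, by 0.14 ± 0.05 (adjusted p = 0.0387). With PTH, where that library plays no direct part, the differences were 0.13 ± 0.08 (*Cyp51*), 0.07 ± 0.11 (*Tm7sf2*) and 0.03 ± 0.08 (*Msmo1*), and none was called. *Cyp51* was called with PTH in 2 of 19 alternatives, among them the fit without WT vehicle library 1 (0.11, adjusted p = 0.0491).

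In the fatty acid arm, *Elovl6*, the elongase of saturated fatty acids (ENSMUSG00000041220.11; chromosome 3, 129326004 to 129432144), had 137.6, 121.6 and 116.2 CPM in WT and 201.7, 213.0 and 199.4 CPM in Y428F cells with vehicle. The groups were separate (0.71 ± 0.06, 1.64-fold, adjusted p = 4.55e-09). *Acaca*, the acetyl-CoA carboxylase that makes malonyl-CoA (ENSMUSG00000020532.19; chromosome 11, 84020476 to 84292477), had 101.1, 98.3 and 110.1 CPM in WT and 165.6, 165.9 and 161.8 CPM in Y428F cells. They did not overlap either (0.67 ± 0.07, 1.59-fold, adjusted p = 1.36e-07). The ATP citrate lyase *Acly* (0.48 ± 0.05), the fatty acid synthase *Fasn* (0.46 ± 0.09), *Scd1* (0.35 ± 0.06) and *Scd2* (0.24 ± 0.07) were higher as well. Without WT vehicle library 1, 6 of 6 genes of this arm were still called, with a median log2 fold change of 0.44 against 0.47 with it.

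With PTH, 24 of 30 members were higher and 1 lower in Y428F cells, against 22.8% of all genes higher and 23% lower, and 30.7% higher among genes averaging 25 CPM or more. For 23 of 30 every Y428F library lay above every WT library (25.6% of all genes), and the median log2 fold change was 0.30. The 23 members called higher with vehicle were also called higher with PTH, and *Insig1* was added. The groups of the 2 comparisons are different libraries. Over tested genes averaging 4 CPM or more, the 15 chromosomes that hold members had median differences between the lines. These medians ran from -0.24 to 0.25 under vehicle and from -0.26 to 0.26 under PTH. Each member was therefore also set against its chromosome. Before the subtraction 25 of 30 members were above 0 with vehicle and 27 with PTH, and after it 26 were in each comparison, with medians of 0.32 and 0.31. With vehicle, *Msmo1* and *Scap* turned to above 0 and *Tm7sf2* to below 0. With PTH, *Scap* turned to above 0 and *Srebf2* and *Tm7sf2* to below 0.

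The comparison of PTH with vehicle asked how each line responded to the hormone. Of 5 genes listed as known to respond to PTH or cAMP, 3 rose in each line and none fell, against 7.42% of all genes higher in WT and 6.61% in Y428F cells. The 3 were *Nr4a1*, an immediate-early nuclear receptor, *Ptgs2*, the inducible prostaglandin synthase, and *Pde4d*, a cAMP phosphodiesterase. The immediate-early gene *Fos* (0.19 ± 0.30 in WT and -0.12 ± 0.32 in Y428F cells) and *Rgs2*, a regulator of G protein signalling (1.94 ± 1.78 and -0.23 ± 1.18), were not called in either line. *Fos* had 15 to 29 counts per library and *Rgs2* 0 to 3, levels too low to say much about a response. Among the lipid genes the response was small. In WT cells, 2 of 30 members rose, *Hsd17b7* and *Hmgcs1*, and 0 fell, against 7.42% of all genes higher and 6.01% lower, and 15.3% higher among genes averaging 25 CPM or more, so the count was not above the background. The median log2 fold change was 0.02. In Y428F cells, 5 of 30 rose, *Insig1*, *Hsd17b7*, *Msmo1*, *Sc5d* and *Cyp51*, and 1 fell, *Dhcr7*, against 6.61% of all genes higher and 5.78% lower, and 13.8% higher among genes averaging 25 CPM or more. That share of members higher, 16.7%, was near the background of genes of like level. The counts shifted with scaling: with library totals in place of TMM, 1 member rose and 1 fell in WT cells and 3 rose and 3 fell in Y428F cells. That scaling also took the share of higher genes among all called from 55.2% to 37.3% in WT cells and from 53.4% to 38.1% in Y428F cells.

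**Figure D3:**
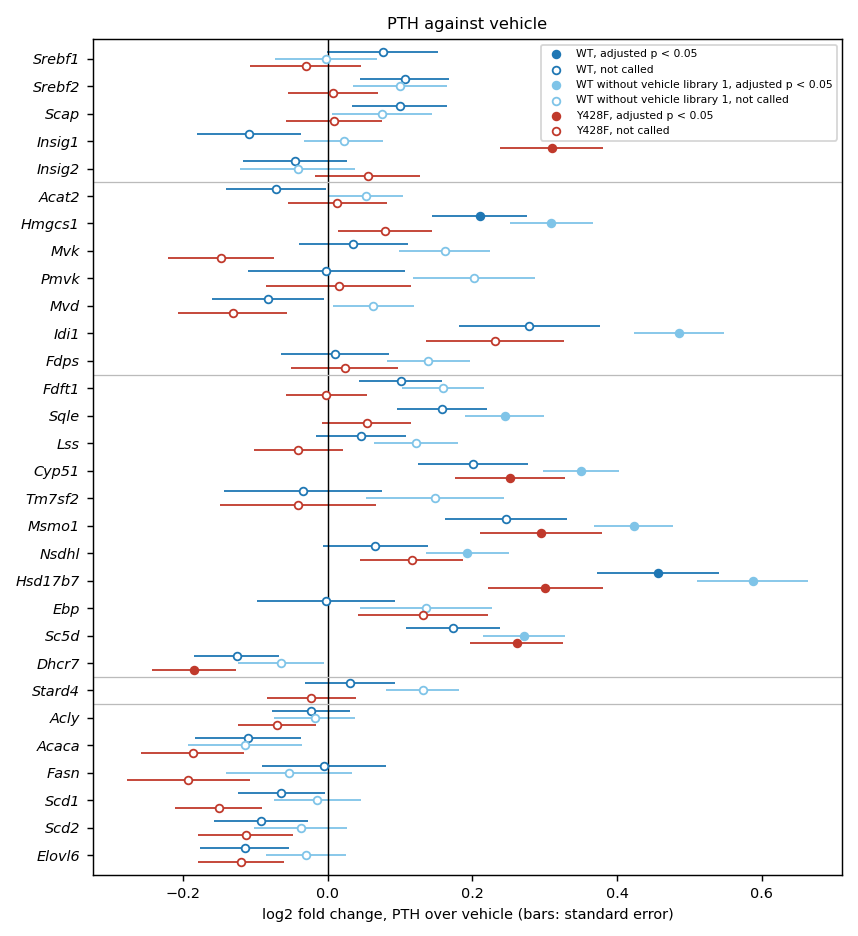
Log2 fold change of PTH over vehicle for each member (horizontal axis; bars, standard errors) in WT cells, in WT cells without vehicle library 1 and in Y428F cells. Filled points have an adjusted p under 0.05, and they number 2 in WT cells, 8 in WT cells without vehicle library 1 and 6 in Y428F cells.

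*Hsd17b7* was the member called in both lines. It had 43.5, 35.1 and 34.1 CPM with vehicle and 50.0, 55.6 and 49.3 CPM with PTH in WT cells, and every PTH library lay above every vehicle library (0.46 ± 0.08, 1.37-fold, adjusted p = 0.000849). In Y428F cells it had 63.3, 60.3 and 62.7 CPM with vehicle and 72.5, 83.4 and 73.4 CPM with PTH, again without overlap (0.30 ± 0.08, adjusted p = 0.0158). *Hmgcs1*, whose promoter window holds the sterol regulatory element shown above, had 195.2, 164.4 and 164.2 CPM with vehicle and 207.2, 206.4 and 192.3 CPM with PTH in WT cells, where the groups overlapped at library 1 (0.21 ± 0.07, adjusted p = 0.0386). In Y428F cells it had 267.0, 269.3 and 283.8 CPM with vehicle and 290.6, 300.5 and 275.3 CPM with PTH (0.08 ± 0.06, adjusted p = 0.522).

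How many members were called in the response of WT cells depended on vehicle library 1. Without it, 8 of 30 members rose (26.7%), and 0 fell, where 8.2% of all genes and 16.9% of genes averaging 25 CPM or more rose. Those other genes did not choose the library, so the shares are not a comparison. All 8 were sterol enzymes: *Hsd17b7* (0.59 ± 0.08), *Idi1* (0.49 ± 0.06), *Msmo1* (0.42 ± 0.05), *Cyp51* (0.35 ± 0.05), *Hmgcs1* (0.31 ± 0.06), *Sc5d* (0.27 ± 0.06), *Sqle* (0.24 ± 0.05) and *Nsdhl* (0.19 ± 0.06). Of the 18 sterol enzymes, 17 then had a log2 fold change above 0, the exception being *Dhcr7*, and their median was 0.18 against 0.06 with the library. The 6 fatty acid genes stayed below 0 with and without it. The count in WT cells was 1 without vehicle library 2 or 3 or without PTH library 1 or 2, when *Hmgcs1* was no longer called (adjusted p from 0.114 to 0.166).

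In Y428F cells the 5 members that rose were *Insig1* and 4 of the 11 genes of the squalene and sterol arm. *Msmo1* had 332.4, 341.2 and 348.9 CPM with vehicle and 422.5, 410.2 and 421.7 CPM with PTH (0.29 ± 0.08, 1.23-fold, adjusted p = 0.0251). *Cyp51* had 690.7, 665.5 and 709.3 CPM with vehicle and 830.8, 813.1 and 816.5 CPM with PTH (0.25 ± 0.08, 1.19-fold, adjusted p = 0.0324). In neither gene did the groups overlap. *Sc5d*, the lathosterol desaturase (ENSMUSG00000032018.15; chromosome 9, 42162891 to 42175605), had 125.5, 134.4 and 127.8 CPM with vehicle and 161.6, 150.0 and 153.1 CPM with PTH, also apart (0.26 ± 0.06, 1.20-fold, adjusted p = 0.00933). In WT cells these genes had 405.6, 397.6 and 427.4 CPM (*Msmo1*), 755.2, 737.8 and 760.5 CPM (*Cyp51*) and 122.9, 126.7 and 126.6 CPM (*Sc5d*) with PTH. Each of these WT values lay above vehicle libraries 2 and 3 of its gene, whereas vehicle library 1, with 420.4, 772.1 and 124.3 CPM, lay within or above them.

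*Dhcr7*, the 7-dehydrocholesterol reductase (ENSMUSG00000058454.16; chromosome 7, 143376740 to 143402149), went the other way. It had 125.0, 114.0 and 121.3 CPM with vehicle and 108.4, 104.2 and 104.4 CPM with PTH in Y428F cells, where every PTH library was lower (-0.18 ± 0.06, 0.88-fold, adjusted p = 0.0396). In WT cells it had 101.9, 89.1 and 95.1 CPM with vehicle and 87.3, 88.7 and 86.3 CPM with PTH, which was lower in every library but not called (-0.13 ± 0.06, adjusted p = 0.183). *Sc5d* and *Dhcr7*, which act next to each other in the pathway, thus had log2 fold changes of opposite sign in both lines. The calls in Y428F cells were not equally firm: *Insig1* was called in 19 of 20 alternatives, *Sc5d* in 18 and *Hsd17b7* in 17. *Msmo1* was called in 13, *Cyp51* in 12 and *Dhcr7* in 10 of the 20. By count, 2 members rose without vehicle library 1 or 2, and 3 rose without vehicle library 3 or any 1 of the 3 PTH libraries. *Dhcr7* was lost in 8 of the 12 fits that left out a library. All 12 libraries share 1 estimate of spread per gene, so WT vehicle library 1 also enters the standard errors in Y428F cells. Without it, *Msmo1* was at 0.30 ± 0.05 (adjusted p = 0.000255) and *Cyp51* at 0.25 ± 0.05 (adjusted p = 0.000793) in Y428F cells. The log2 fold changes thus barely moved. That library was singled out by these enzymes, so a smaller spread without it is no independent evidence.

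*Insig1* (ENSMUSG00000045294.12; chromosome 5, 28276315 to 28283668) encodes a retention protein of SCAP and is itself an SREBP target. In WT cells it had 351.5, 271.9 and 286.3 CPM with vehicle and 282.2, 272.9 and 288.4 CPM with PTH, and the groups overlapped (-0.11 ± 0.07, adjusted p = 0.384). In Y428F cells it had 285.2, 270.9 and 277.8 CPM with vehicle and 350.9, 347.7 and 334.7 CPM with PTH, without overlap (0.31 ± 0.07, 1.24-fold, adjusted p = 0.00641). The difference between the responses was 0.42 ± 0.10 and did not pass the threshold (adjusted p = 0.097), with adjusted p from 0.000485 to 0.33 over 19 alternatives, of which 4 passed. Without WT vehicle library 1 it was 0.29 (adjusted p = 0.121), a smaller difference than that of *Mvk*, at -0.31 (adjusted p = 0.154). With vehicle, *Insig1* was not called between the lines (-0.13 ± 0.07, adjusted p = 0.168), whereas with PTH it was higher in Y428F cells (0.29 ± 0.07, adjusted p = 0.00204).

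**Figure D4:**
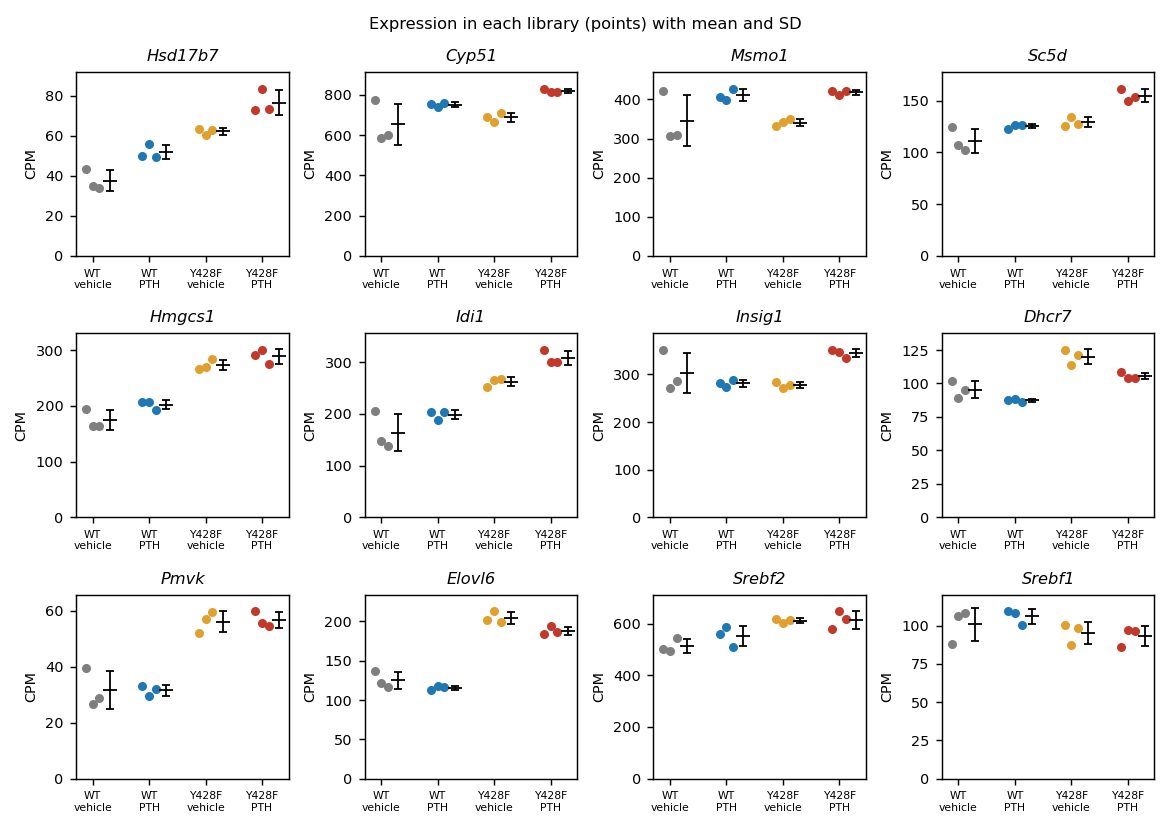
CPM (vertical axes, starting at 0) of 12 members in each of the 3 libraries of the 4 groups (coloured points), with the group mean and SD beside them in black. *Pmvk* and *Elovl6* separate the lines, whereas *Insig1* is high in the Y428F PTH libraries (334.7 to 350.9 CPM) and in WT vehicle library 1 (351.5 CPM).

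Over the whole set, 0 of 30 members differed between the lines in their PTH response, against 0.17% of all genes higher and 0.243% lower in Y428F cells. At an unadjusted p under 0.05 by edgeR, 1 of 30 members differed, against 7.05% of all genes and 8.08% of genes averaging 25 CPM or more. With DESeq2, 1 member was called. Without WT vehicle library 1, again 0 of 30 members passed the threshold, but 9 of 30 (30%) had an unadjusted p under 0.05 by edgeR. In that fit 7.42% of all genes and 8.99% of genes averaging 25 CPM or more had such a p. The 9 members were *Insig1*, *Mvk*, *Idi1*, *Hmgcs1*, *Hsd17b7*, *Sqle*, *Mvd*, *Stard4* and *Fdft1*. In 8 of them, all but *Insig1*, the log2 fold change was lower in Y428F cells. Of the members, 28 of 30 were then below 0, including 18 of 18 sterol enzymes, whereas with the library 20 of 30 were, including 10 of 18 sterol enzymes. Of all genes, 53.2% were below 0 without the library and 49.6% with it. Of genes averaging 25 CPM or more, 53.8% and 49.9% were. The shift of the members too follows from which library was left out, so the shares without it are not a comparison. Simulated differences in response of 1.25-fold were recovered for 5% of genes and of 1.5-fold for 81.5%, and the differences of the members other than *Insig1* were between -0.19 and 0.13. Without the library they were between -0.31 (*Mvk*) and 0.10 (*Insig2*). The 6 genes of the fatty acid arm had log2 fold changes below 0 with PTH in both lines, from -0.12 to -0.01 in WT cells and from -0.19 to -0.07 in Y428F cells, and none was called. Y428F PTH library 1 was the lowest of its group for each of these 6 genes. Their sum was 4323 CPM in it, against 5006 and 4693 CPM in PTH libraries 2 and 3. The Y428F vehicle libraries had 5085, 5005 and 5211 CPM. Its stromal marker sum was also the lowest of its group, 10344 against 13084 and 12370 CPM, and the cause was not tested. In WT cells *Fasn* (from -0.07 to 0.07) and *Acly* (from -0.07 to 0.01) turned sign over the alternatives. In Y428F cells *Acaca* had 129.4, 155.7 and 148.3 CPM with PTH, each below its vehicle libraries (-0.19 ± 0.07, adjusted p = 0.0996). *Elovl6* had 184.6, 194.3 and 186.1 CPM with PTH, also below its vehicle libraries (-0.12 ± 0.06, adjusted p = 0.222). *Idi1* had 204.0, 187.8 and 204.4 CPM in WT and 323.8, 300.0 and 300.1 CPM in Y428F cells with PTH, and was called in neither line (0.28 ± 0.10, adjusted p = 0.0645, and 0.23 ± 0.10, adjusted p = 0.133). Without WT vehicle library 1 it was called in both (0.49 ± 0.06, adjusted p = 1.79e-05, and 0.23 ± 0.05, adjusted p = 0.00536).

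Other genes of sterol and fatty acid metabolism were examined in lists. Genes for sterol uptake, transport and storage were mostly lower in Y428F cells with vehicle, with 7 of 11 lower and 1 higher, against 22.7% of all genes and 34.2% of genes averaging 25 CPM or more lower. *Npc2*, which carries cholesterol out of lysosomes, had 438.3, 434.8 and 438.9 CPM in WT and 244.0, 237.8 and 242.0 CPM in Y428F cells (-0.86 ± 0.05, adjusted p = 4.76e-11). *Stard5*, a sterol carrier (-1.15 ± 0.10), and *Gramd1b*, a sterol transfer protein at membrane contacts (-1.28 ± 0.11), were the largest of these. With PTH the list again had 7 of 11 lower (23% of all genes and 34.6% of genes averaging 25 CPM or more) and 1 higher, the latter the lipoprotein receptor *Scarb1* in both comparisons. Of 8 tested genes of the LXR list, the nuclear receptors that answer to oxysterols and their targets, 4 were lower and 1 higher with vehicle, against the same 22.7% and 34.2% lower and 22.4% and 30.7% higher. With PTH 4 were lower, against 23% and 34.6%, and 2 higher (25%), against 22.8% and 30.7%. The tested genes of this list include *Smpdl3a*, which had 0 counts in every WT library and 3 to 7 counts in the Y428F libraries. A difference at that level rests on few reads, so the counts of higher genes say little. *Mylip*, an LXR-induced ubiquitin ligase, had 92.6, 104.8 and 99.5 CPM in WT and 42.4, 44.9 and 45.7 CPM in Y428F cells with vehicle (-1.16 ± 0.06, adjusted p = 5.76e-12). *Abca1*, the cholesterol exporter, was also lower (-1.62 ± 0.26), as was *Rxra*, the partner of LXR (-0.84 ± 0.07).

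With PTH, *Mylip* and *Abca1* fell within each line, and *Rxra* fell in Y428F cells (-0.30 ± 0.07, adjusted p = 0.00933) but was not called in WT cells (-0.10 ± 0.07, adjusted p = 0.393). *Mylip* went to 56.2, 60.6 and 60.5 CPM in WT cells (-0.74 ± 0.06, adjusted p = 5.67e-08) and to 31.1, 33.6 and 34.3 CPM in Y428F cells (-0.43 ± 0.07, adjusted p = 0.000206). *Abca1* was at levels under 7 CPM (-0.80 ± 0.24, adjusted p = 0.0319 in WT and -1.06 ± 0.32, adjusted p = 0.0349 in Y428F cells). In Y428F cells with PTH it had 5, 20 and 22 counts, so its fall there leans on library 1. Of the 11 genes for sterol uptake, transport and storage, 1 rose and 2 fell with PTH in WT cells, and 0 rose and 1 fell in Y428F cells. Of all genes, 7.42% rose and 6.01% fell in WT and 6.61% and 5.78% in Y428F cells. *Gramd1b* fell in both lines (-0.60 ± 0.11 and -0.49 ± 0.13), and *Osbp*, the oxysterol binding protein, rose in WT cells (0.39 ± 0.06). *Gramd1a* went from a mean of 55.7 CPM with vehicle to 41.9 CPM with PTH in WT cells. Of 8 LXR genes, 2 fell in WT and 3 in Y428F cells, and none rose. Of all genes, 6.01% fell in WT and 5.78% in Y428F cells, and of genes averaging 25 CPM or more 7.17% and 7.39%. Of the 10 genes of SREBP processing and turnover, 3 rose with PTH in each line and none fell, against 7.42% and 6.61% of all genes higher, and 15.3% and 13.8% of genes averaging 25 CPM or more. They included *Sec24d*, a coat protein of vesicles leaving the endoplasmic reticulum (0.46 ± 0.06 in WT and 0.20 ± 0.06 in Y428F cells) and *Ube2g2*, a ubiquitin-conjugating enzyme (0.24 ± 0.07 and 0.23 ± 0.06). *Sec24d* was at the same time lower in Y428F cells with vehicle (-0.46 ± 0.06) and *Ube2g2* higher (0.55 ± 0.07), and the list was split at 3 higher and 3 lower, near the share over genes averaging 25 CPM or more (30.7% and 34.2%).

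Among 7 genes of the isoprenoid branch and sterol end steps, 3 were higher in Y428F cells with vehicle and none lower (42.9%), and with PTH 4 were higher and none lower (57.1%). Of genes averaging 25 CPM or more, 30.7% were higher in each comparison, and of all genes 22.4% and 22.8%. The 3 higher with vehicle were *Lbr*, a sterol reductase of the nuclear membrane (0.65 ± 0.06), *Coq2*, of ubiquinone synthesis (0.45 ± 0.12), and *Nus1*, of dolichol synthesis (0.38 ± 0.06). *Nus1* also rose with PTH in both lines (0.19 ± 0.06 and 0.20 ± 0.06), and *Lbr* rose in Y428F cells (0.21 ± 0.06). Of 11 tested genes in the list of other fatty acid and acetyl-CoA genes, 6 were higher and 3 lower in Y428F cells with vehicle, and 6 and 3 with PTH. Among genes averaging 25 CPM or more, 30.7% were higher and 34.2% lower with vehicle (22.4% and 22.7% of all genes). With PTH these shares were 30.7% and 34.6% (22.8% and 23% of all genes). The desaturases *Fads2* (0.42 ± 0.07) and *Fads1* (0.40 ± 0.06) were higher, and *Gpam* and *Lpin1*, which build glycerolipids, were lower (-0.48 ± 0.09 and -0.47 ± 0.08). *Lpin1* fell with PTH in Y428F cells (-0.32 ± 0.09, adjusted p = 0.0172), and *Acacb*, the mitochondrial acetyl-CoA carboxylase, fell in WT cells (-0.63 ± 0.16, adjusted p = 0.0135). *Me1*, which supplies NADPH, rose in both (0.25 ± 0.05 in WT and 0.17 ± 0.05 in Y428F cells). *Pparg* rose with PTH in WT (0.51 ± 0.07, adjusted p = 5.4e-05) and in Y428F cells (0.71 ± 0.07, adjusted p = 9.62e-07), whereas *Cebpa*, another adipogenic factor, was lower in Y428F cells with vehicle (-2.24 ± 0.09).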

How the data were processed

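Expected counts per gene were deposited by the authors for 12 libraries of W-20 cells, made with STAR 2.7.10b and RSEM on GRCm39 with the GENCODE basic annotation. The values were not scaled, and the strandedness of the kit is not given in the sources used here, so reads of overlapping antisense genes cannot be told apart. Libraries held 17127897 to 19057319 counts, and this depth bears on counting error only.

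Expected counts were rounded and fitted over all 12 libraries with edgeR 4.0.16 (R 4.3.3), TMM factors and a sum of 10 or more counts per gene (17691 genes). Differences were tested with the quasi-likelihood test and Benjamini-Hochberg adjustment over all genes, at an adjusted p under 0.05. Fold changes are log2 with standard errors. CPM values are TMM-scaled. With 200 genes changed, the fit recovered 95.5% of simulated 1.5-fold changes of the WT PTH response. Alternatives were DESeq2 1.42.0, DESeq2 size factors, library totals, no filter or at least 120 counts, a replicate block, stricter limits, fits of 1 line and each library left out.

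The members and lists were chosen with earlier results of these data known, so list counts are not independent evidence. Named members were those of the SREBP machinery, those called in a PTH response and the 6 with the largest difference between lines with vehicle, and in other lists up to 3 genes with the largest called change and a mean of at least 2 CPM per comparison. *Scarb1*, *Fads1* and *Smpdl3a* were added after their values were seen. Gene positions came from GENCODE on GRCm39 and promoter windows from RefSeq. A few genes of the lists are not reported here.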

Additional observations from a re-analysis of the deposited data

Results flagged for a closer look

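Single libraries of a group were not tested as outliers, and no member is listed here. Among the other genes examined, the PTH response of *Pde4d* differed between the lines by -0.74 on the log2 scale (adjusted p = 0.0381), with 11.7, 13.9 and 12.9 CPM rising to 30.9, 37.0 and 32.5 CPM in WT cells and 7.39, 6.17 and 6.06 CPM rising to 9.21, 10.8 and 10.6 CPM in Y428F cells. *Prrx1* and *Arl4c* are listed because every PTH library moved one way in WT cells and the opposite way in Y428F cells. The difference in response was -0.17 for *Prrx1* (adjusted p = 0.65) and 0.24 for *Arl4c* (adjusted p = 0.378), so neither passed the threshold.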

How the results depend on the processing

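Directions between the lines were kept by every member called with vehicle under all alternatives run. Signs turned between the lines for 4 members, none of them called with all 12 libraries: with vehicle *Msmo1* (-0.02), which ranged from -0.10 without WT vehicle library 2 to 0.14 without WT vehicle library 1, *Tm7sf2* (0.08, from -0.02 to 0.25) and *Cyp51* (0.08, from -0.00027 to 0.21), and with PTH *Insig2* (-0.01, from -0.05 to 0.06). In the PTH responses, the sign turned under at least 1 alternative for 14 members in WT and 8 in Y428F cells, none of them called with all 12 libraries. In WT cells, members higher with PTH numbered 2, but 4 by DESeq2, 5 without a filter on low counts, 5 with the replicate block, 1 with library totals (and 1 lower), 1 with WT libraries only and 1 at an adjusted p under 0.01 with a log2 fold change beyond 0.3. In Y428F cells, 5 rose and 1 fell, against 3 and 3 with library totals, 2 that fell without a filter, and 1 and 0 at the stricter limits. Between lines with PTH, 1 was lower, but 0 with library totals, 2 without a filter and 2 with the replicate block, and at the stricter limits 15 were higher and 0 lower. The difference in response had 1 call with DESeq2, 1 without a filter and 1 with the replicate block. With exon union length, the median level was 27.4 CPM per kb in place of 36.4.

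Over fits that left out 1 library each, members called higher ranged from 1 to 8 (WT PTH response), 2 to 6 (Y428F PTH response), 21 to 26 (lines with vehicle), 21 to 25 (lines with PTH) and 0 to 1 (difference in response). Members called lower ranged from 0 to 0, 0 to 1, 0 to 1, 0 to 2 and 0 to 0 in the same order. Their median log2 fold changes ranged from -0.01 to 0.13, -0.01 to 0.02, 0.30 to 0.42, 0.27 to 0.33 and -0.12 to -0.0025.

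Replicate numbers did not pair the libraries on average: deviations of 18 same-numbered pairs correlated at a mean of 0.02 (-0.19 to 0.32), and other pairs at -0.01. The replicate block thus only shares a number. Single pairs went further, such as WT vehicle library 1 with Y428F PTH library 1 (0.32) and with Y428F PTH library 2 (-0.27). WT PTH library 3 correlated with these at 0.31 and -0.35. Whether single libraries of different groups shared handling was not tested. Library totals moved the median of all genes by less than 0.1. Simulated 1.25-fold changes were recovered for 44.5% (WT PTH response), 34% (lines with vehicle) and 5% (difference in response) of genes, which limits what a small response can show. Each simulation changed 200 genes, whereas 2375 genes were called in the WT PTH response and 7986 between the lines with vehicle. Fewer changed genes make the adjusted p limit harder to pass, so 44.5% and 34% are not the recovery in these comparisons.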
